A study of Mus musculus with 2 samples.

Results

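Microtubule-associated proteins and stathmins are described here in the midbrain of the newborn mouse through 10 genes: the doublecortin relatives Dcx and Dclk1, the tau relatives Mapt and Map2, the MAP1 genes Map1a and Map1b, and the stathmins Stmn1, Stmn2, Stmn3 and Stmn4. The genes were listed by family and name, with no threshold on their values, and each was found in the gene tables through its Ensembl identifier, so that 10 of 43346 genes are treated. All 10 passed a level of 1 TPM (a unit in which each count is divided by the effective transcript length and rescaled to a fixed library total) in both libraries. Of 21474 protein-coding genes, 11551 did so. The study measured total RNA of whole midbrain from mice of strain B6NTac;B6NCrl/Lap at postnatal age 0 days, in 1 group of 2 libraries that the labels call biological replicates. Per the labels the animals were healthy, males and females were pooled, replicate 1 came from 15 mice and replicate 2 from a pool of unstated size. Ribosomal RNA was removed, RNA over 200 nucleotides was kept, and the stranded libraries were read as pairs of 101 bases. With a single group there is no contrast between conditions, and the spread between the libraries is the only error that can be given.

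Microtubules are hollow polymers of alpha- and beta-tubulin that grow and shrink at their ends. In a young neuron they fill the growing axon and dendrites, carry cargo, and move the nucleus during migration. Structural microtubule-associated proteins bind along the polymer and stabilise or bundle it, whereas stathmins bind free tubulin dimers and favour disassembly, an activity that phosphorylation turns off. Many of these genes are spliced differently in newborn and adult brain, so their transcripts are described beside their levels.

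Replicate 1 held 46685706 estimated counts and replicate 2 held 72779229. All 7 midbrain markers measured, among them Otx2, En1, En2 and Pax7, reached 1 TPM in both libraries, and of 5 hindbrain markers none did, although Hoxa5, Hoxb3 and Hoxd3 passed it in replicate 2, Hoxa5 with 0.02 TPM in replicate 1 and 1.91 in replicate 2. The choroid plexus gene Ttr stood at 14.4 TPM in replicate 1 and 163 in replicate 2. All 7 neuronal markers were detected, led by Tubb3 at 816 and 727 TPM. Whole tissue was sequenced, so fewer cells of a type and less RNA per cell cannot be told apart in any value below.

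Several results turn on short coding stretches, which are printed from the GENCODE transcript set on GRCm38 (the mm10 assembly), 5′ to 3′ on the coding strand. Map2 has a coding exon of 93 bases for the second of its microtubule-binding repeats, at chr1:66431527-66431619 (plus strand), shown because its share of the gene's transcripts is given below.
Map2 93-base exon: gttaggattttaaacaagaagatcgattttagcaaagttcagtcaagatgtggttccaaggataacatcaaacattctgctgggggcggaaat

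The stathmins are shown by their first 90 coding bases, because this end carries their main difference in localisation. Stmn2, Stmn3 and Stmn4 proteins are held on membranes by fatty acids joined to cysteines near the amino terminus, and Stmn1 is cytosolic. Capitals mark cysteine codons in frame.
Stmn1-201: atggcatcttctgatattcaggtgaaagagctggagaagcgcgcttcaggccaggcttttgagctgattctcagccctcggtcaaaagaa
Stmn2-201: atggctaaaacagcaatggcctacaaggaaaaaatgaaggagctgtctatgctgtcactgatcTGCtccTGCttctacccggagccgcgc
Stmn3-201: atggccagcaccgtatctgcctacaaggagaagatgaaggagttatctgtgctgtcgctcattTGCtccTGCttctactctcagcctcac
Stmn4-201: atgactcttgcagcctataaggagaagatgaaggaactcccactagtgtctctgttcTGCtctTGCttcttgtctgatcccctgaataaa
Stmn2 and Stmn3 have these codons at positions 22 and 24 and Stmn4 at 20 and 22, counted from the start codon. Stmn1 has no cysteine codon in any of its 149 codons. Across the aligned part of the coding sequences, Stmn1 was identical to Stmn2 at 72.7% of 429 bases, to Stmn3 at 69.1% of 433 and to Stmn4 at 71.3% of 429.

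By level, the 10 genes spanned 10.02-fold from lowest to highest mean and lay well above the usual protein-coding gene. Their median was 121 TPM in replicate 1 and 92.5 in replicate 2, where the 11551 protein-coding genes detected in both libraries had medians of 7.96 and 6.57. TPM here is shared with RNA that is not protein-coding: protein-coding genes held 22.4% of it in replicate 1 and 19.8% in replicate 2, so that 1 TPM equals 4.47 and 5.06 when only these genes are scaled. Together they took 0.678% ± 0.0494 (SD, n = 2) of the TPM of protein-coding genes and 1.24% ± 0.0367 of their counts. In order of mean TPM the genes were Stmn1, Map2, Stmn3, Map1b, Mapt, Stmn2, Dcx, Dclk1, Stmn4 and Map1a. None of the 9 neighbouring pairs in this order differed 2-fold in both libraries, and in 3 of them, Stmn1 with Map2, Map2 with Stmn3, and Dcx with Dclk1, the order itself was reversed between the libraries.

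**Figure D1:**
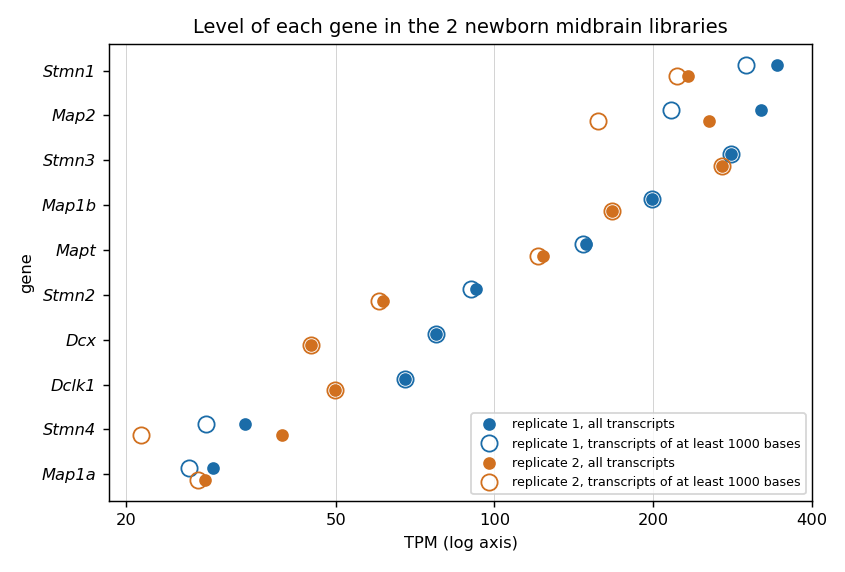
Level of each gene in TPM on a log axis, with 1 point per library. Filled points count all annotated transcripts and open points those of at least 1000 bases; the 2 kinds lie apart for Map2 and Stmn4, whose replicate values without shorter transcripts are 216 and 158, and 28.4 and 21.4.

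Dcx encodes doublecortin, an X-linked protein that stabilises the microtubules of migrating neurons and whose loss in humans disturbs cortical layering (chrX:143855842-143933311, minus strand). It stood at 77.5 TPM in replicate 1 and 44.9 in replicate 2, a mean of 61.2 ± 23.1 (SD, n = 2). Of the 10 genes it had the largest TPM ratio between the libraries. Dclk1, its relative with a protein kinase domain (chr3:55242364-55539068, plus strand), stood at 67.8 and 49.8 TPM, a mean of 58.8 ± 12.7. Dcx over Dclk1 had a log2 ratio of 0.19 in replicate 1 and -0.15 in replicate 2, so these genes could not be ranked.

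Dclk1 was quantified as 3 transcripts, which divide the gene by function. Dclk1-201, with 2268 coding bases, has both the doublecortin and the kinase end and took 64.3% of the gene's TPM in replicate 1 and 63.9% in replicate 2. Dclk1-203, with 1089 coding bases and the doublecortin end alone, took 23.3% and 22.8%. It leaves the long form through its own last coding exon of 54 bases (chr3:55466573-55466626, plus strand), printed because it is the stretch that tells this form apart.
Dclk1-203 coding end: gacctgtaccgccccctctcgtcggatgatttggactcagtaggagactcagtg
Dclk1-202, with 1266 coding bases and the kinase end alone, took 12.5% and 13.3%. The order of the 3 forms was the same in both libraries, and 87.1% ± 0.631 of the gene's TPM encoded the doublecortin end. By estimated counts, which are not divided by length, the forms took 68.9%, 18.8% and 12.3% on average.

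**Figure D2:**
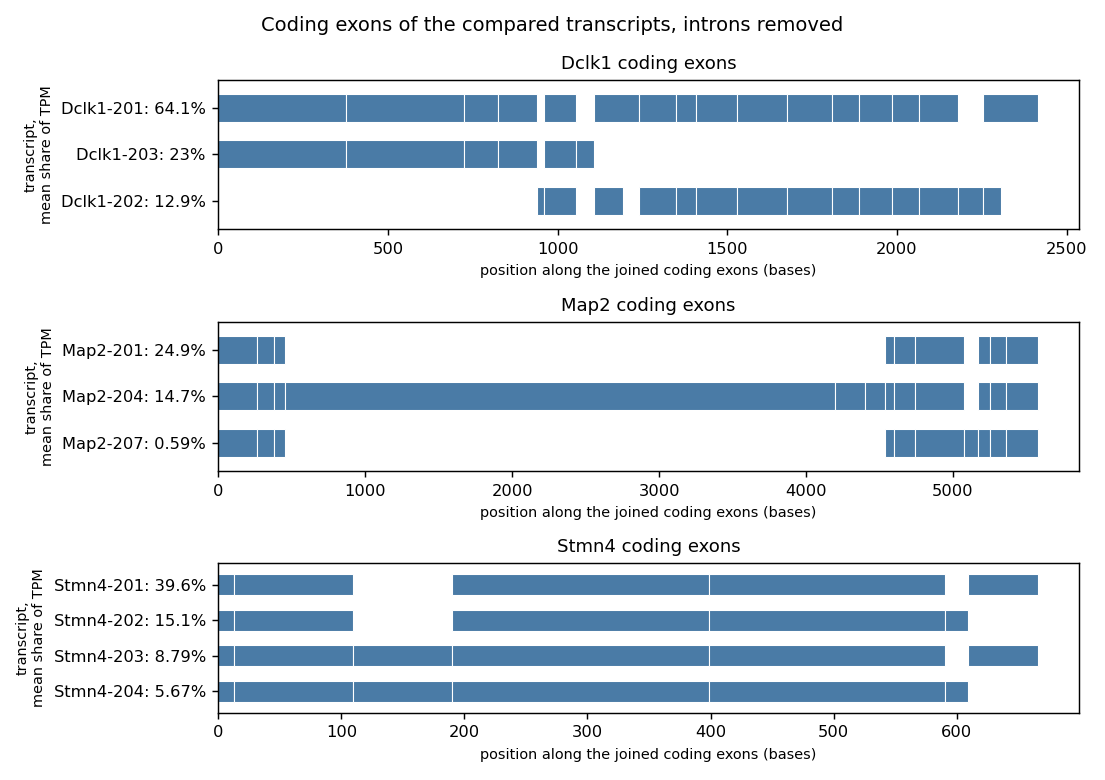
Coding exons of compared transcripts of Dclk1, Map2 and Stmn4, drawn to scale along the joined exons with introns removed; each label gives the transcript's mean share of the gene's TPM. Dclk1-203 and Dclk1-202 overlap only briefly, Map2-204 alone holds the long central exon, and the 4 Stmn4 transcripts differ by an inner exon and by the last coding exon.

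Most Dcx came from Dcx-201, whose share of the gene's TPM was 69.5% in replicate 1 and 71.8% in replicate 2, and whose share of counts was 89.2% ± 1.43. The coding transcripts differ at the ends of neighbouring exons, shown here with the optional bases in capitals.
Dcx 138-base exon: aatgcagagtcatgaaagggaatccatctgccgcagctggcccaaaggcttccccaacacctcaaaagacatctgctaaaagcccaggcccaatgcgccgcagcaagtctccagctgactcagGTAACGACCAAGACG
Dcx 98-base exon: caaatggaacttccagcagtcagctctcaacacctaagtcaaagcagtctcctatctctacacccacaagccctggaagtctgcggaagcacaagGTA
These exons lie at chrX:143875755-143875892 and chrX:143870607-143870704 on the minus strand. Transcripts that keep the 3 optional bases of the second exon carried 80.9% and 81.4% of the TPM of the 4 coding transcripts, and 93.6% ± 0.833 of their counts. Dcx-203, a form without these bases, is annotated over 4095 bases against 9074 for Dcx-201, and how this bears on the split was not tested. Dcx-204, the form without the 15 bases of the first exon, carried 7.81% and 10.1% of that TPM but only 1.29% ± 0.229 of the counts. It is annotated over 1333 bases against 9074 for Dcx-201, and TPM weighs such short transcripts more. The retained-intron transcripts Dcx-205 and Dcx-206 together took 7.20% ± 0.697 of the gene's TPM.

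Map2 and Mapt bind microtubules through the same kind of repeats, Map2 protein mostly in dendrites and cell bodies and tau, the product of Mapt, mostly in axons. Map2 (chr1:66175273-66442583, plus strand) stood at 321 TPM in replicate 1 and 255 in replicate 2, a mean of 288 ± 46.8 (SD, n = 2). Mapt (chr11:104231390-104332090, plus strand) stood at 149 and 123 TPM, a mean of 136 ± 18.3. Both were lower in replicate 2 on this scale, where TPM of genes with at least 1000 counts ran lower by a median log2 ratio of -0.29. Within a library Map2 exceeded Mapt by a log2 ratio of 1.10 in replicate 1 and 1.05 in replicate 2.

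This lead of Map2 rests partly on short annotated fragments. Map2-218, an annotated 5′ fragment of 546 bases, took 24.7% of the gene's TPM in replicate 1 and 23.0% in replicate 2, on 1.96% of its counts in each. Map2-222, a fragment of 722 bases, took 6.83% and 12.2% of TPM on 0.898% and 1.73% of counts. With only transcripts of at least 1000 bases, Map2 stood at 187 ± 41.4 TPM and Mapt at 134 ± 18.6, and the log2 ratio was 0.55 in replicate 1 and 0.38 in replicate 2, below 2-fold. The 7 full-length coding transcripts of Map2 held 92.6% ± 0.172 of its counts and 57.8% ± 3.09 of its TPM.

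Among those 7, the juvenile form without the large central exon led. Map2-204, the sole one with the coding exon of 3741 bases that makes the high-molecular-weight protein of 1828 codons, took 26.5% of their TPM in replicate 1 and 24.5% in replicate 2. The forms of 467 codons, the size of MAP2c, were led by Map2-201 at 24.9% ± 2.16 and Map2-202 at 12.9% ± 2.30 of the gene's TPM. Over the whole gene Map2-204 took 14.7% ± 1.63. Map2-204 is annotated with a 3′ end 3393 bases short of Map2-201, and how this bears on the split was not tested. The 93-base exon printed above was rare: transcripts with it took 1.20% and 1.01% of the full-length TPM, and 2.51% and 3.87% when partial coding transcripts that span it were counted too.

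For Mapt the annotated transcripts differ at the amino-terminal end of tau. Mapt-204, the form with neither of the 87-base exons that add inserts there, took 98.1% of Mapt TPM in replicate 1 and 97.6% in replicate 2, on 55883 and 85052 counts. These are shares among the annotated transcripts, and RNA of a form with no annotated transcript would be counted on another. They therefore do not bear on the rest of the coding sequence. Mapt-204 is annotated over 5253 bases, of which 1116 are coding. The next longest coding transcript, Mapt-203, has 2250 bases, of which 2247 are coding. How this bears on the shares of Mapt transcripts was not tested. The transcripts with the long exon known from tau of peripheral nerve, Mapt-202 and Mapt-203, took 0.241% ± 0.0662. This too is a share among annotated transcripts and does not give the use of that exon in forms with no annotated transcript.

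Map1b and Map1a encode large proteins that are cut into heavy and light chains, Map1b known for the growing axon and Map1a for later stages. Map1b (chr13:99421446-99516540, minus strand) stood at 199 TPM in replicate 1 and 167 in replicate 2, a mean of 183 ± 22.3 (SD, n = 2). Its rank among all protein-coding genes was 3 by counts in both libraries, with 176427 and 274563, and 98 and 106 by TPM. Map1b was quantified as a single transcript, of 11852 bases, and it held 38.9% ± 1.64 of the counts of the 10 genes against 12.8% ± 0.479 of their TPM.

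Map1a (chr2:121289600-121310832, plus strand) had the lowest mean of the 10, at 29.2 and 28.3 TPM, a mean of 28.8 ± 0.643. With protein-coding transcripts alone Stmn4 was the lowest, at 24.98 TPM against 26.9 for Map1a, and with transcripts of at least 1000 bases likewise, at 24.9 against 26.9. Map1b exceeded it by a log2 ratio of 2.76 in replicate 1 and 2.56 in replicate 2, or 6.32-fold on average. Map1a-202, with 2776 codons, took 51.1% and 55.0% of its TPM, and Map1a-201, with 3014 codons and a longer amino-terminal end, 39.3% and 41.8%. Map1a overlaps Ppip5k1 on the opposite strand, which stood at 3.60 and 4.06 TPM. The labels call the libraries stranded, and whether the counting used strand is not given in the sources used here.

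Stmn1, the stathmin also used by dividing cells, had the highest mean of the 10 (chr4:134468320-134473843, plus strand). It stood at 344 TPM in replicate 1 and 233 in replicate 2, a mean of 288 ± 78.3 (SD, n = 2), and in replicate 2 it lay below Stmn3 and Map2. With transcripts of at least 1000 bases Stmn3 was the highest by mean, at 276 TPM against 261 for Stmn1, and with TPM scaled to protein-coding genes Map2 was, at 1363 against 1357. Stmn3 (chr2:181306459-181314500, minus strand) stood at 281 and 270 TPM, a mean of 276 ± 8.32. Stmn2, known as SCG10 in growth cones (chr3:8509360-8561606, plus strand), stood at 92.1 and 61.5 TPM, a mean of 76.8 ± 21.7. Stmn4 (chr14:66344296-66361680, plus strand) was the lowest stathmin, at 33.7 and 39.6 TPM, a mean of 36.7 ± 4.18. The order from Stmn2 down to Stmn4 held in both libraries, with both below Stmn1 and Stmn3.

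Ratios within a library put numbers on that order. Stmn1 exceeded Stmn2 by a log2 ratio of 1.90 and 1.92, the ratio with the smallest gap between the libraries of the 8 compared, and Stmn3 exceeded Stmn4 by 3.06 and 2.76. Stmn2 over Stmn3 was -1.61 in replicate 1 and -2.13 in replicate 2. Stmn1 also exceeded Dcx by 2.15 and 2.37. Of the 8 pairs chosen for comparison, beside the neighbours in the order of levels, 6 differed by 2-fold or more in one direction in each library, the exceptions being Dcx with Dclk1 and Map2 with Map1b.

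The 4 stathmins took 0.321% ± 0.0217 of protein-coding TPM and 0.141% ± 0.00454 of protein-coding counts, whereas the MAP1 genes took 0.1004% ± 0.0022 of TPM and 0.547% ± 0.0165 of counts. Map2 with Mapt took 0.201% ± 0.0135 of TPM and 0.363% ± 0.0179 of counts. Summed by family, the stathmins thus led by molecules and the long MAP1 transcripts by reads. The stathmin sum is over 4 genes and that of each other family over 2, so it is no lead per gene. Of the 10 genes, Stmn1 alone had gene counts that were not whole within 0.005, at 19613.35 and 25239.09. Its deposited credibility bounds ran from 335 to 345 TPM in replicate 1 and from 229 to 234 in replicate 2.

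Stmn1 and Stmn4 were the stathmins whose transcripts varied between the libraries. Stmn1-201 took 87.5% of Stmn1 TPM in replicate 1 and 95.4% in replicate 2. Stmn1-202, which joins its last coding exon 10 bases earlier, took 9.25% and 2.51%, on 1272 counts in the smaller library and 431 in the larger. The coding ends of both are printed with these 10 bases in capitals.
Stmn1-201 coding end: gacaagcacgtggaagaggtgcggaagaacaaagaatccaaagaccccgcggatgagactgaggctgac
Stmn1-202 coding end: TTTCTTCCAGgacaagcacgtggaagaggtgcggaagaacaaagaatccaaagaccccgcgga
They lie at chr4:134473332-134473400 and chr4:134473322-134473384 on the plus strand. The annotated 3′ end of Stmn1-202 is 179 bases short of that of Stmn1-201, so the share rests on the position of the end as well as on the junction. The deposited credibility bounds of Stmn1-202 ran from 27.5 to 35.2 TPM in replicate 1 and from 4.27 to 7.50 in replicate 2 and did not overlap.

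By TPM, Stmn4 changed its leading transcript from one library to the other. Stmn4-201, with 567 coding bases, took 53.5% of its TPM in replicate 1 and 25.7% in replicate 2, and Stmn4-208, a retained-intron transcript that runs 65 bases into an intron, took 15.1% and 45.0%. Counts on Stmn4-208 were 158 and 1025, against 1414 and 1478 on Stmn4-201, which led by counts in both libraries. Stmn4-208 is annotated over 685 bases against 1303 for Stmn4-201, and TPM weighs such short transcripts more. Without Stmn4-208 and other transcripts that are not coding, Stmn4 stood at 28.6 TPM in replicate 1 and 21.4 in replicate 2. The order of the libraries was thus reversed from that of the whole gene. The deposited credibility bounds of Stmn4-208 ran from 3.37 to 6.97 TPM in replicate 1 and from 15.9 to 19.6 in replicate 2.

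Coding Stmn4 transcripts differ by an inner exon of 81 bases and by the last coding exon, which has 57 coding bases in Stmn4-201 and Stmn4-203 and 18 in Stmn4-202 and Stmn4-204. These are shown because they define the 4 forms.
Stmn4 81-base exon: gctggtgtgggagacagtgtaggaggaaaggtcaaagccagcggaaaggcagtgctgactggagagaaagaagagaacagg
Stmn4 57-base coding end: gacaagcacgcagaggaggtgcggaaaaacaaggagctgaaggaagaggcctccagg
Stmn4 18-base coding end: gagccgcctgctgcgcgg
They lie at chr14:66356269-66356349, chr14:66361075-66361131 and chr14:66358679-66358696 on the plus strand. The 81-base exon was in 23.0% of the TPM of the 4 forms in replicate 1 and 17.6% in replicate 2, and the 18-base end in 24.5% and 38.7%. Stmn2-201 took 94.6% and 96.2% of Stmn2, and Stmn3 was quantified as a single transcript.

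**Figure D3:**
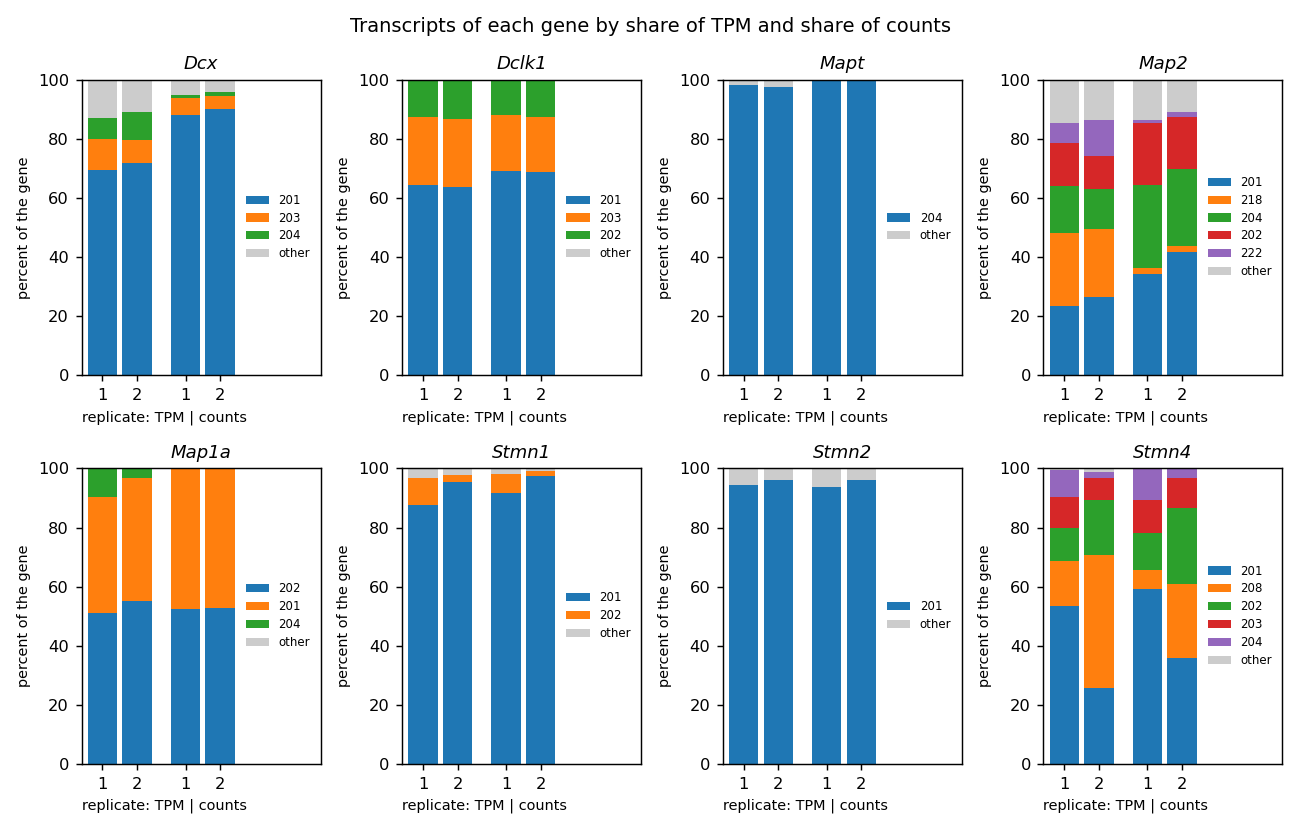
Percent of each gene carried by its transcripts in each library, by TPM (left pair of bars) and by estimated counts (right pair); transcripts with a mean share of TPM of at least 5% are coloured and the rest are grey. The bars of Dclk1 match between the libraries, those of Stmn4 do not, and Map2-218 shrinks from 23.9% of TPM to 1.96% of counts.

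Once scaled, the genes lay within 2-fold between the libraries, as did nearly all genes with counts as high. Ratios were computed from counts with TMM (trimmed mean) scaling, replicate 2 over replicate 1, and with 1 library on each side they carry a counting interval and no test. None of the 10 was past 2-fold, where 16.5% of the 18305 genes tested were; that share is made mostly by low counts, and among the 7276 genes with at least 1000 counts in both libraries, as all 10 have, it was 0.206%. At 1.5-fold again none of the 10 was past, with 27.2% of all genes and 2.31% of high-count genes. The median of the 10 was -0.08, beside -0.02 over the high-count genes.

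Within that range the genes were spread out. Dcx was lowest in replicate 2, with 41179 counts in replicate 1 and 44585 in replicate 2 and a log2 ratio of -0.49 (95% counting interval -0.51 to -0.47), and 2.76% of high-count genes had a lower one. Stmn2 followed at -0.31, Stmn1 at -0.24, Map2 at -0.16 and Dclk1 at -0.16. Mapt, at -0.0001, and Map1b, at 0.03, matched the scaling most closely. Stmn4 stood at 0.17, Stmn3 at 0.22 and Map1a at 0.33 (0.31 to 0.36), and 92.8% of high-count genes lay below Map1a. The sign of Mapt changed with spike-in scaling, to 0.01, and unscaled TPM put 9 of the 10 below 0, Stmn4 being the exception at 0.23. Limited to its coding transcripts, Stmn4 too was lower in replicate 2 by unscaled TPM, at 28.6 in replicate 1 and 21.4 in replicate 2.

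Markers of other cells moved between the libraries as well. On the same scale the median log2 ratio was 0.20 over the 7 neuronal markers, which ran from -0.27 for Gap43 to 0.33 for Snap25. It was 0.06 over 6 progenitor markers, 0.52 over 5 markers of dividing cells, 0.25 over 5 of astrocytes, 0.44 over 7 of the oligodendrocyte lineage, 0.07 over 5 of microglia, 0.76 over 5 of erythroid cells, 1.18 over 4 of choroid plexus and 2.57 over the 5 hindbrain markers. It was below 0 over 4 markers of endothelium, at -0.24, and 4 of meninges, at -0.12. Over 7 markers of midbrain it was -0.12, with a range from -0.28 for Pax5 to 0.45 for Th. The part of these cells in the ratios of Dcx, Stmn1, Stmn2 and Map1a was not tested.

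**Figure D4:**
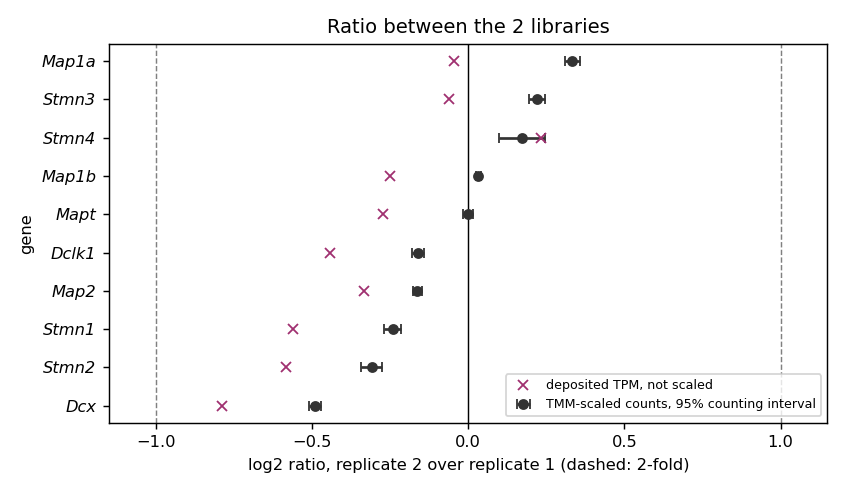
Log2 ratio of replicate 2 over replicate 1 for each gene. Circles are TMM-scaled counts with 95% counting intervals, crosses are the deposited TPM without scaling, and dashed lines mark 2-fold; circles run from -0.49 for Dcx to 0.33 for Map1a, all inside the dashed lines.

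The other genes of the microtubule system were read from lists to place the 10 genes. A gene counted as detected at 1 TPM or more in both libraries, which 11551 of 21474 protein-coding genes reached. Tubulins were detected in 13 of 16 cases, led by Tuba1a at 4377 ± 90.7 TPM, Tubb2a at 1232 ± 28.3 and Tubb2b at 1156 ± 106, while Tuba8, Tubd1 and Tube1 lay below 1 TPM in both libraries. Of 15 other structural microtubule-associated proteins 13 were detected, led by Map6, which stabilises microtubules against cold, at 67.6 ± 6.39, the broadly expressed Map4 at 34.7 ± 7.18, and the Dclk1 relative Dclk2 at 31.8 ± 4.03. Map7d3 held 1 count in replicate 1 and 0 in replicate 2. Even Map6 was below 6 of the 10 genes described here, by mean TPM.

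Proteins that act on the ends of microtubules were all detected, 15 of 15, with Clasp2 at 47.7 ± 10.5, the end-binding protein Mapre2 at 37.7 ± 4.48 and Clip3 at 33.5 ± 11.3. Severing enzymes were lower, with 6 of 9 detected: spastin, encoded by Spast, stood at 22.5 ± 5.26 and Katnal1, a katanin relative, at 12.0 TPM in replicate 1 and 8.02 in replicate 2, while Katnal2 and Fignl2 lay below 1 in both libraries. Enzymes that modify tubulin were detected in 14 of 14 cases, led by the acetyltransferase Atat1 at 41.0 ± 1.97, the deglutamylase Agtpbp1 at 25.4 ± 2.44 and the deacetylase Hdac6 at 21.2 ± 1.11.

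All 19 kinase genes whose products or activators act on these proteins were detected. Cdk5r1, the activator of the tau and doublecortin kinase Cdk5, led at 78.6 ± 2.26, and Camk2b stood at 41.3 ± 0.205. All 11 motor and lissencephaly genes were detected, among them the kinesins Kif1a at 135 ± 15.7 and Kif5c at 74.0 ± 19.6 and the dynein heavy chain Dync1h1 at 58.2 ± 12.0. The 5 collapsin response genes, whose products bind tubulin in growing axons, reached the range of the genes described, with Dpysl2 at 286 ± 33.1, Dpysl3 at 258 ± 44.3 and Crmp1 at 150 ± 18.9. Of 13 factors reported to act on tau splicing all were detected, led by Srsf1 at 65.5 ± 20.1, Srsf2 at 45.6 ± 13.6 and Ptbp2 at 32.6 ± 8.96.

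**Figure D5:**
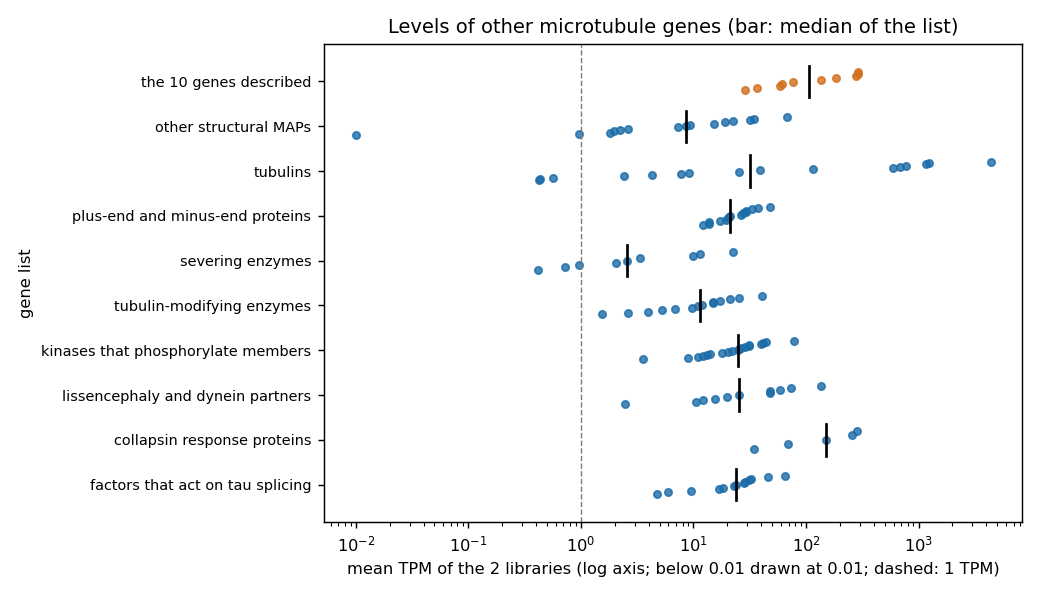
Mean TPM of each gene (points, log axis) in the 10 genes described and in 9 lists of other microtubule genes, with a bar at each median and a dashed line at 1 TPM. Tubulins reach the highest values, up to 4377, and the severing enzymes have the lowest median.

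For each of the 10 genes the protein-coding gene with the nearest level over both libraries was found, as the distance on log2(TPM + 1). Map2 lay nearest to Dpysl2, at 310 and 263 TPM, Map1b to Aplp1, at 195 and 166, and Stmn4 to Syngr1, at 34.4 and 40.1. Dcx lay nearest to Rps23, Dclk1 to Jund, Mapt to Scd2, Map1a to Atraid, Stmn2 to Ywhae and Stmn3 to Rps24. Stmn1 had the farthest nearest gene, Podxl2 at 324 and 215 TPM, with a distance of 0.144. With 2 libraries such likeness is one of level alone.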

How the data were processed

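Total RNA of newborn mouse midbrain was measured in 2 libraries of 1 group. Per text notes deposited beside the tables, quantification by the authors used mm10 and GENCODE M4; which aligner and counting program they ran is not given in the sources used here. Estimated counts (expected counts), as deposited, divide a read among the features it fits. The authors' TPM divide counts by effective length and sum to a fixed total over all rows; the deposited FPKM were not used. The percent of each gene carried by a transcript follows the deposited values, and the credibility bounds of TPM, a score of the authors with no level stated, are quoted as deposited. The length columns are in bases per the file headers.

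Names, classes and exons came from GENCODE M21 (GRCm38), which matched 42462 of 43346 genes; unmatched genes held 0.131% and 0.120% of gene counts. All 69 transcripts of the 10 genes matched, 67 with equal length. Transcript classes were summed per library. Values are mean ± SD over 2 libraries. Pairs used log2(TPM + 0.1). Library ratios used estimated counts rounded to whole numbers, edgeR 4.0.16 TMM scaling and genes with at least 10 counts in a library. They were tried on simulated counts with counting error only, a narrower spread than that of these libraries. That trial therefore does not show how the ratios behave at the real spread. The ratios have Clopper-Pearson 95% intervals, which cover counting error only, as reads lacking molecular identifiers need not be separate molecules. DESeq2 1.42.0 size factors and spike-in counts were alternatives. Coding sequences were aligned globally with Biopython 1.88. The libraries differed beyond sampling (chi-square 51.4 per degree of freedom). No p-value was computed, since the design has 1 group. The rule named all 10 genes, the 3 highest and the lowest (below 1 TPM) of each list (some of these are not reported here), the nearest gene of each, and the leading transcripts. The families of genes, the lists and the pairs were proposed with earlier results of these data known; the limit to transcripts of at least 1000 bases was added after the data were seen, and other markers named were chosen after their values were seen.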

Additional observations from a re-analysis of the deposited data

How the results depend on the processing

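Besides 106 values from a single library, which lie within 1 SD of a mean of 2 by construction and so show nothing of stability, 203 values were recomputed under alternatives for 73 results. Of these, 131 moved by less than the spread between the libraries, their counting interval or, for counts of genes, 1.5 times, 72 moved by more, and no called value changed sign. Neither tally measures stability. Scaling to protein-coding genes raises every level, and DESeq2 size factors shift every log2 ratio between the libraries by only -0.0002. Scaled to protein-coding genes alone, the level of all 10 genes was higher, for Dcx 287 in place of 61.2 TPM, and Map2, at 1363, passed Stmn1, at 1357. Limited to protein-coding transcripts, the log2 ratio of Map2 over Mapt was 1.03, Stmn1 over Stmn2 1.96, Stmn3 over Stmn4 3.47 and Map2 over Map1b 0.58, and Mapt-204 took 99.6% of Mapt. Limited to transcripts of at least 1000 bases, Map2 over Mapt was 0.47, Map2 over Map1b 0.0165 (with opposite signs in the libraries), Stmn1 over Stmn2 1.81 and Stmn3 over Stmn4 3.48, Mapt-204 took 99.6%, and 5 of the 8 pairs stayed past 2-fold in place of 6. Counts divided by gene length gave 1.66 for Stmn1 over Stmn2, 0.56 for Map2 over Map1b and 1.86 for Stmn1 over Dcx. As shares of counts, Mapt-204 took 99.7%, the large Map2 exon 29.4%, Dclk1-201 68.9%, Dclk1-203 18.8% and the Dcx forms with the 3 optional bases 93.6%. The cause of these shifts was not tested. At 5 TPM, 3 severing enzymes were detected in place of 6. No gene passed 2-fold between the libraries under any scaling tried.

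Single libraries gave log2 ratios of 2.56 to 2.76 for Map1b over Map1a, 1.05 to 1.10 for Map2 over Mapt, -0.15 to 0.19 for Dcx over Dclk1, 1.90 to 1.92 for Stmn1 over Stmn2, -2.13 to -1.61 for Stmn2 over Stmn3, 2.76 to 3.06 for Stmn3 over Stmn4, 0.61 to 0.69 for Map2 over Map1b and 2.15 to 2.37 for Stmn1 over Dcx. Stmn4-208 ranged from 15.1% to 45.0% and Stmn1-202 from 2.51% to 9.25%. No paired analysis was possible because the labels define a single group.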
